A study of Mus musculus with 6 samples.

Results

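The genes described here code for the enzymes and transporters that carry glucose into the cell, split it to pyruvate and lactate, and store it as glycogen. They were taken as the lines whose gene name equalled an entry of a fixed list, which gave 36 of 37 listed genes among 23361 genes in the table, and all 36 were tested by the authors. Eno1 was the entry without a line of its own, because the table joins it with its copy Gm5506. RNA was sequenced from 6 samples of satellite cells, which are muscle stem cells, with 3 samples from wild-type mice and 3 from AUF1-null mice, which lack the mRNA-binding protein made from Hnrnpd. Both groups were 4 months old and shared a mixed C57BL/6 and 129 background. The cells came from collagenase-digested hindlimb muscle and were sorted on the surface proteoglycan Sdc4, so the cells sequenced were those of that gate. The labels do not name separate mice as the source of the samples, so the p-values may measure technical spread only. The authors' deposited table holds 1 value per gene for each of 2 conditions, on the FPKM scale (fragments per kilobase of transcript per number of mapped fragments, a level corrected for length) and pooled over replicates. It names the conditions q1 and q2 and does not say which is AUF1-null, so each direction below is q2 relative to q1. No SD or n can stand beside a value, and the read depth behind each value is unknown.

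Glycolysis turns glucose into pyruvate in a fixed series of steps, and pyruvate is then reduced to lactate or enters the mitochondria. Many steps are shared out among isoforms made by separate genes, with a form of mature muscle fibres beside forms found in most cells. Glycogen phosphorylase releases sugar from stored glycogen, which muscle draws on during contraction. Quiescent satellite cells are known to rely little on glycolysis, and its use increases when they are activated.

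No gene of the pathway passed the authors' test, and most lay higher in q2 than in q1. By the Cuffdiff q-value of the authors' deposited table, a gene was called when its q was below 0.05, and 0 of 36 members were called higher and 0 called lower. Among all 14858 tested genes, 74 (0.498%) were called higher and 17 (0.114%) called lower. At an unadjusted Cuffdiff p below 0.05, 4 members (11.1%) lay higher and 0 lower, against 3.72% of all tested genes higher and 2.27% lower. Those 4 were Pygl, Slc16a3, Pgam2 and Hk2. The log2 fold change was above 0 for 24 members and below 0 for 12, with a median of 0.29, a lowest value of -0.73 and a highest of 1.32. All tested genes had a median of -0.01, and 48.7% of them lay above 0. Scaling both conditions to the same sum moves every value by 0.12, which leaves 23 members above 0 and a median of 0.17 beside -0.13 for all tested genes.

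The lack of calls has a limit of size. The largest difference among members, 2.49-fold for Pygl, was smaller than the smallest fold that the authors' test called among genes above 0 on both sides, 2.50-fold for Plaur. Of 1272 tested genes above 0 on both sides that reached 1 FPKM on the higher side and differed at least 2-fold, 73 were called. A difference of the size seen in these genes was therefore not one that the test called in this table, and the absence of a call does not show equal levels.

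The sorted cells held RNA of several cell types, and some of it differed between conditions. Pax7, which defines satellite cells, stood at 1.16 (q1) and 0.85 (q2) per the authors' deposited table, while the endothelial marker Pecam1 was at 421 and 327. Sdc4, on which the cells were sorted, was at 173 and 270 there. Of 10 tested satellite cell markers, 6 lay above 0 and 4 below, Pax7 among the latter. Hnrnpd itself was at 7.5 and 5.59 (q = 0.999, Cuffdiff) per the authors' deposited table. The 22 tested muscle fibre markers were all above 0 (median log2 fold change 0.78) with none called, and had a summed level of 2337 in q1 and 4462 in q2. The 12 tested neutrophil markers were all above 0 as well, 9 of them called, with sums of 1202 and 15495. Of 14 tested monocyte and macrophage markers, 10 lay above 0 and 1 was called, with sums of 1717 and 3189. The largest part of both sums was Lyz2, at 633 and 1504 per the authors' deposited table. Csf1r, Emr1, Mrc1 and Cd163 lay below 0. The 12 endothelial markers all lay below 0, with a median of -0.25 and sums of 19007 and 16085. Most of both sums was Fabp4, at 14386 and 12031.5 per the authors' deposited table. No marker of these lists was at 0 in either condition. In bulk RNA, fewer cells of a type and less RNA per cell cannot be told apart.

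**Figure D1:**
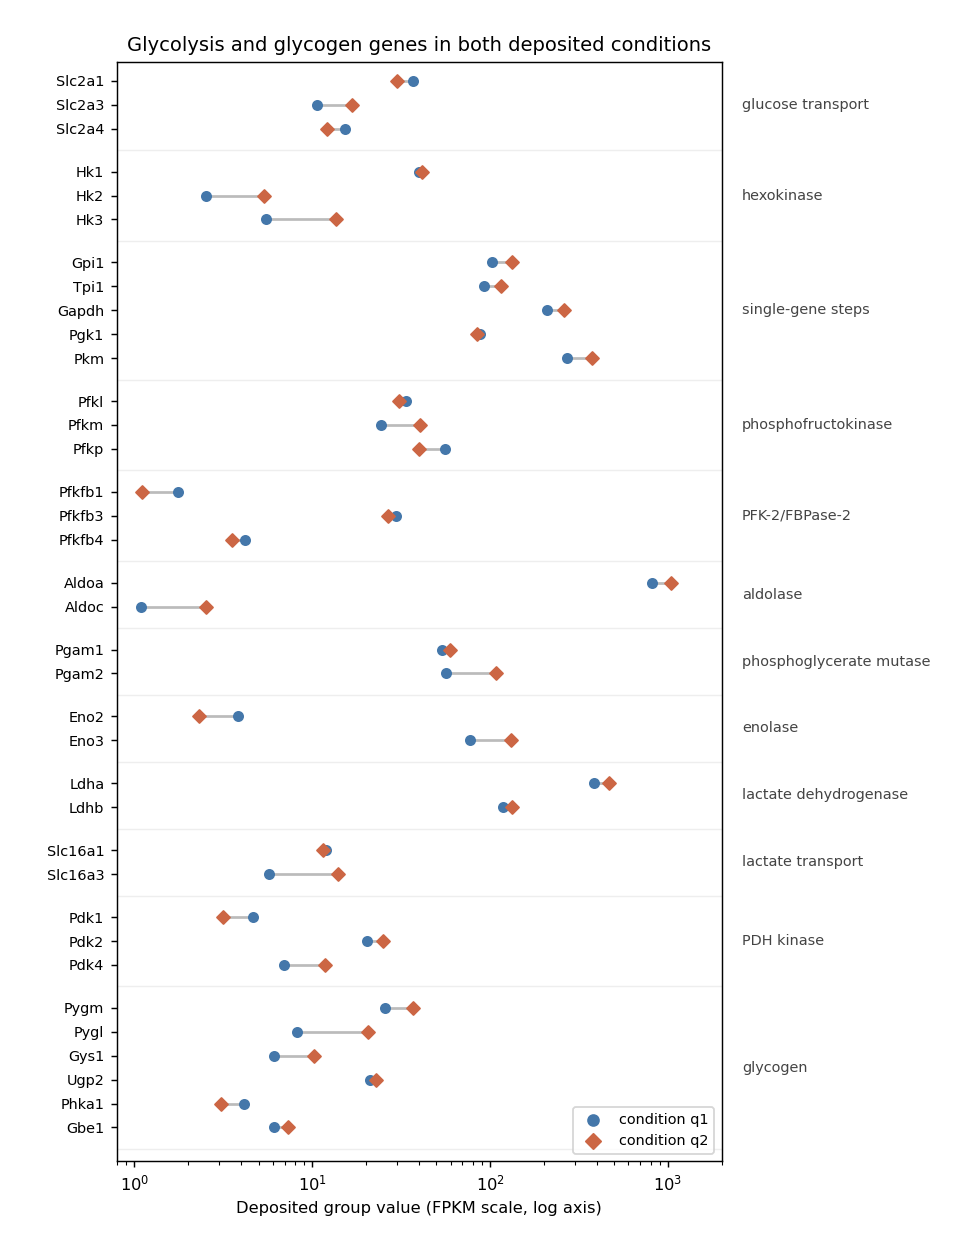
Levels of the 36 genes in the deposited conditions q1 (circles) and q2 (diamonds), on a log axis of the FPKM scale, grouped by step of the pathway; each point is a value pooled over replicates, so there are no error bars. Aldoa is the highest gene in both conditions, and the widest gaps are those of Pygl, Hk3, Slc16a3, Aldoc and Hk2, all with q2 to the right.

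The most abundant members were the same in both conditions, and the order of the top 5 did not differ. Aldoa, the muscle form of aldolase that most tissues also make, stood at 811 (q1) and 1043 (q2) per the authors' deposited table, which was 30.6% and 31.2% of the members' sum. Ldha, a subunit of lactate dehydrogenase, followed at 383 and 469, Pkm, the pyruvate kinase of muscle and many other tissues, at 270.4 and 372, Gapdh at 210.3 and 260.2, and Ldhb at 119 and 133 per the authors' deposited table. Without replicate values, neighbours in this order cannot be compared with their spread. In q1, 6 members were above 100 FPKM, and in q2, 9 were, the added ones being Tpi1, Pgam2 and Eno3. The members summed to 2652 in q1 and 3340 in q2, a ratio of 1.26, whereas the whole table summed to a ratio of 1.08.

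The steps served by a single main gene lay close together. Gpi1, the isomerase that makes fructose-6-phosphate, was at 103 and 132, and Tpi1, triosephosphate isomerase, at 92.6 and 115 per the authors' deposited table. Pgk1, phosphoglycerate kinase, was at 88.3 and 84.8 there. The log2 fold changes of Gpi1, Tpi1, Gapdh, Pgk1 and Pkm ranged from -0.06 to 0.46 with a median of 0.31, and the lowest p among them was 0.257. These are the widely made enzymes of the pathway, and they differed less than many isoforms described below. Gapdh and several other enzymes of this group have processed pseudogenes in the mouse genome, and the rule for counting reads shared with such copies was not stated.

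Phosphoglycerate mutase, which moves the phosphate group of 3-phosphoglycerate, has a muscle form and a widespread form that stood far apart in fold change. Pgam2, the muscle form at chr11:5801637-5803796 (GRCm38), stood at 56.2 and 108.6, with a log2 fold change of 0.95 (p = 0.0136, q = 0.518, Cuffdiff) per the authors' deposited table. Pgam1, the form of brain and most other tissues, was at 53.8 and 59.7 with a log2 fold change of 0.15 (q = 0.999, Cuffdiff) per the authors' deposited table. Both forms stood at nearly the same level in q1, and Pgam2 was the higher one in q2. Its share of the pair went from 51.1% to 64.5%, a ratio of muscle to widespread form of 1.04 and then 1.82. A share within a family does not depend on how the conditions were scaled, but it has no replicate spread here and was not tested.

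The start regions of the mutase pair are shown because they differ in motifs and base composition. Beside them stand those of Eno3 and of Hk2, a muscle form that other tissues also make. The regions of Pygl and Slc16a3, which had the lowest Cuffdiff p of the members, overlapped an annotated exon and are not shown. Each region shown is the 250 bases before a transcript start, from RefSeq on GRCm38.p6, read 5′ to 3′ on the gene's strand. The start nearest the 5′ end of the deposited gene position was taken. None of the regions shown overlaps an annotated exon of GENCODE vM21. Capitals mark matches on either strand to the E-box CANNTG, which factors such as MyoD bind, to the hypoxia core ACGTG, to TATAAA and to the MEF2 box; the E-box CACGTG and the hypoxia core overlap. Pgam2 lies on the minus strand at chr11:5803797-5804046, Pgam1 on the plus strand at chr19:41911621-41911870, Eno3 on the plus strand at chr11:70656926-70657175 and Hk2 on the minus strand at chr6:82774455-82774704.
Pgam2: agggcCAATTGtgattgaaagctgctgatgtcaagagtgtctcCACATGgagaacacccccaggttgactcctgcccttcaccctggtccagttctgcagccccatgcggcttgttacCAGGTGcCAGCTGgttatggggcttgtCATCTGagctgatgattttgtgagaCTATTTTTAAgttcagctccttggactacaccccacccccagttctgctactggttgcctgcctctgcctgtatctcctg
Pgam1: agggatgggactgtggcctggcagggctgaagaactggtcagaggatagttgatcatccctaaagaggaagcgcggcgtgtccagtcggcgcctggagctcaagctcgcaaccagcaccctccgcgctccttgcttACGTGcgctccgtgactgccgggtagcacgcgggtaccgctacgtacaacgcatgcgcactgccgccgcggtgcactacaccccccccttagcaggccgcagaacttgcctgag
Eno3: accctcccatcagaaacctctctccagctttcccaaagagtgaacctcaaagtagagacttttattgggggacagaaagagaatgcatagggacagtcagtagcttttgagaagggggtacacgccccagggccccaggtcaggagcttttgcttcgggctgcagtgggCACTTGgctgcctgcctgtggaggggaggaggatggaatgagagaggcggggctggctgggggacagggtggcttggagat
Hk2: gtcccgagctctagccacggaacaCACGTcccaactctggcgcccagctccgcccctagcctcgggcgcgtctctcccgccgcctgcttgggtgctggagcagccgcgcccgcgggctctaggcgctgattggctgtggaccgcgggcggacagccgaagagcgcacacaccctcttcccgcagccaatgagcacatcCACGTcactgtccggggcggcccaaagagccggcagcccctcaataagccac

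The Pgam2 region holds 5 E-boxes, 1 MEF2 box and 1 CpG dinucleotide, while the Pgam1 region holds 0 E-boxes, 1 hypoxia core and 22 CpG. Eno3 has 1 E-box and 3 CpG, and Hk2 has 2 hypoxia cores and 25 CpG. In 33 members, the annotated start lay within 1000 bases of the 5′ end of the deposited gene position. Of these, 69.7% held an E-box, against 57.7% of 9873 tested genes with such a region. The hypoxia core was present in 36.4% of the members and 21.2% of all, the MEF2 box in 6.06% and 1.16% (Pgam2 and Pfkfb1), and TATAAA in 6.06% and 7.04%. Of the muscle forms in the narrow sense, Pgam2, Eno3, Pygm and Phka1 had a region and all 4 held an E-box. Of 5 muscle forms that other tissues also make, 4 held one and Hk2 did not. An E-box was present in 12 of 17 widespread forms and in 3 of 7 forms of other tissues. The median CpG number was 3.5 in the narrow class, 11 in the muscle forms also made elsewhere and 9 in the forms of other tissues. It was 17 in the widespread forms and 15 in all tested genes. These are matches of letters in a window and were not tested against the fold changes.

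Enolase makes phosphoenolpyruvate, and its muscle form also stood higher in q2. Eno3, beta enolase of muscle at chr11:70657176-70662513 (GRCm38), was at 77.6 and 130.5, with a log2 fold change of 0.75 (p = 0.0579, q = 0.876, Cuffdiff) per the authors' deposited table. Eno2, gamma enolase of neurons, was at 3.82 and 2.30 (log2 fold change -0.73, q = 0.999, Cuffdiff) per the authors' deposited table. The joined line of Eno1 and Gm5506 was at 38.2 and 45.1, and a second line for Gm5506 at the same position, chr4:150237197-150248873 (GRCm38), at 36.5 and 30.2 per the authors' deposited table. Since these lines divide reads of near-identical transcripts, the level of Eno1 is uncertain. Eno3 held 64.9% of the family in q1 and 73.4% in q2 with the joined line, and 49.7% and 62.7% with the Gm5506 line added.

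Phosphofructokinase, the main controlled step, had subunits on both sides of 0. Pfkm, the muscle subunit, was at 24.2 and 40.6, with a log2 fold change of 0.75 (p = 0.136, q = 0.999, Cuffdiff) per the authors' deposited table. Pfkp, the platelet-type subunit, was at 56.2 and 39.7 (log2 fold change -0.50, p = 0.235), and Pfkl, the liver-type subunit, at 33.6 and 30.7 (log2 fold change -0.13, p = 0.703), per the authors' deposited table. The sum of the 3 was 114 and 111, so the total differed less than its parts. Pfkm held 21.3% of that sum in q1 and 36.6% in q2, the widest shift in share of the 8 families compared. The table gives Pfkm the same position as its neighbour Senp1, and 5 other members, Hk1, Hk3, Pfkp, Tpi1 and Ugp2, also share a position with another gene. How reads were divided within these positions was not examined.

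The PFKFB enzymes set the level of fructose-2,6-bisphosphate, which activates phosphofructokinase. All 3 lay below 0, with log2 fold changes from -0.67 to -0.15. Pfkfb3, the form linked to high glycolytic rates, was at 29.7 and 26.8, Pfkfb4 at 4.21 and 3.56, and Pfkfb1 at 1.76 and 1.11 per the authors' deposited table, with a lowest p of 0.379.

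Hexokinases, which trap glucose as glucose-6-phosphate, differed by isoform. Hk2, the main hexokinase of muscle, heart and fat, at chr6:82725027-82774454 (GRCm38), was at 2.55 and 5.35, with a log2 fold change of 1.07 (p = 0.0176, q = 0.568, Cuffdiff) per the authors' deposited table. Hk1, the form of most tissues, was the most abundant at 39.7 and 41.7 per the authors' deposited table, and its log2 fold change of 0.07 turned to -0.05 with both conditions scaled to the same sum. Hk2 therefore made up 5.33% of the family in q1 and 8.82% in q2. Hk3, the form of blood cells, was at 5.5 and 13.6 (log2 fold change 1.31, p = 0.197, q = 0.999, Cuffdiff) per the authors' deposited table, on a position that it shares there with Unc5a.

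**Figure D2:**
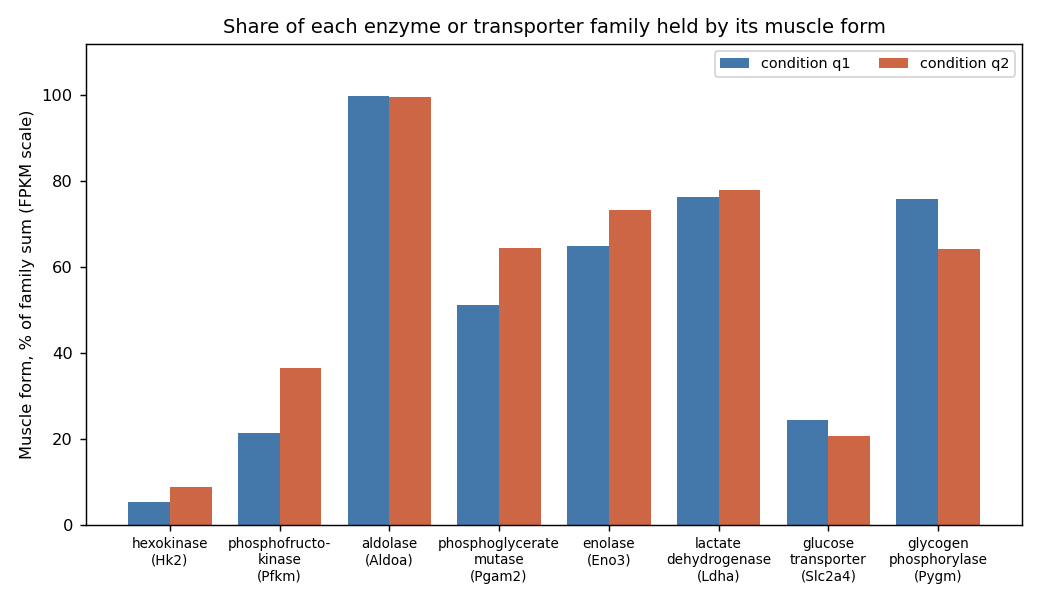
Share of each enzyme or transporter family held by its muscle form in q1 (left bars) and q2 (right bars), in percent of the family's sum on the FPKM scale, with the joined line of Eno1 and Gm5506 counted in the enolase family; values are pooled over replicates and have no error bars. Pfkm goes from 21.3% to 36.6% and Pgam2 from 51.1% to 64.5%, while Pygm goes from 75.8% to 64.3% and Slc2a4 from 24.3% to 20.7%.

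Among the glucose transporters, the muscle form was on the lower side in q2. Slc2a4, which codes for the insulin-responsive GLUT4 of muscle and fat, was at 15.3 and 12.1 (log2 fold change -0.34, p = 0.359) per the authors' deposited table. Slc2a1, the GLUT1 of most cells, was at 37.1 and 29.9 (log2 fold change -0.31, p = 0.383), and Slc2a3, the GLUT3 of neurons and leukocytes, at 10.7 and 16.7 (log2 fold change 0.64, p = 0.0942), per the authors' deposited table. Only Slc2a3 of these 3 lay above 0. The share of Slc2a4 was 24.3% in q1 and 20.7% in q2.

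At the lactate end of the pathway, the 2 lactate transporters stood apart in fold change. Slc16a3, the MCT4 of glycolytic cells at chr11:120948484-120959000 (GRCm38), was at 5.75 and 13.9, with a log2 fold change of 1.27 (p = 0.0053, q = 0.332, Cuffdiff) per the authors' deposited table. Slc16a1, which codes for MCT1, had a log2 fold change of -0.06 (p = 0.884) per the authors' deposited table. Slc16a3 was thus the lower of both in q1, where Slc16a1 was at 12 FPKM, and the higher in q2, where Slc16a1 was at 11.5. Ldha and Ldhb, the muscle and heart subunits of lactate dehydrogenase, had log2 fold changes of 0.29 and 0.16, and Ldha held 76.3% and 77.9% of their sum. The aldolase pair was almost all Aldoa, 99.9% in q1 and 99.8% in q2, with Aldoc, the brain form, at 1.08 and 2.53 (log2 fold change 1.22, p = 0.127) per the authors' deposited table.

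Pyruvate dehydrogenase kinases switch off the entry of pyruvate into the citrate cycle. Pdk4, the form raised by fasting in muscle and heart, was at 6.93 and 11.8, with a log2 fold change of 0.77 (p = 0.0532, q = 0.854, Cuffdiff) per the authors' deposited table. Pdk2 was at 20.4 and 24.9 (p = 0.414) and Pdk1, a target of hypoxia signalling, at 4.64 and 3.15 (p = 0.213) per the authors' deposited table. The 3 kinases did not share a direction.

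Glycogen genes held the lowest p of the pathway. Pygl, the glycogen phosphorylase of liver that leukocytes also make, at chr12:70190815-70227683 (GRCm38), was at 8.24 and 20.5, with a log2 fold change of 1.32 (p = 0.0011, q = 0.133, Cuffdiff) per the authors' deposited table. Pygm, the phosphorylase of muscle, was at 25.8 and 36.9 (log2 fold change 0.52, p = 0.141) per the authors' deposited table. Both were higher in q2, and Pygl by the larger factor, so Pygm made up 75.8% of the pair in q1 and 64.3% in q2. This direction depends on the brain form Pygb, at 24.0 and 18.7 per the authors' deposited table, since with Pygb counted the share of Pygm was 44.4% and 48.5%.

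The rest of the glycogen genes build glycogen or control its breakdown. Gys1, the glycogen synthase of muscle and other tissues outside the liver, was at 6.13 and 10.2 (log2 fold change 0.74, p = 0.0787) per the authors' deposited table. Ugp2, which makes the UDP-glucose that the synthase uses, was at 21.1 and 22.8, and Gbe1, the branching enzyme, at 6.1 and 7.3 per the authors' deposited table. Phka1, the muscle regulatory subunit of phosphorylase kinase, which activates the phosphorylases, was at 4.16 and 3.07 (log2 fold change -0.44, p = 0.294) per the authors' deposited table. Of the 6 glycogen genes, 5 lay above 0 and Phka1 below.

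Set side by side, muscle isoforms lay higher than widespread isoforms by the middle of their ranges, with wide overlap. The 6 muscle forms Pgam2, Eno3, Pfkm, Pygm, Slc2a4 and Phka1 had a median log2 fold change of 0.63, from -0.44 to 0.95, with 4 above 0. The 17 widespread forms had a median of 0.12, from -0.56 to 1.27, with 10 above 0. The highest of them was Slc16a3, counted in this class although described above as a form of glycolytic cells. The next was Pkm at 0.46, and Pgam2, Eno3, Pfkm and Pygm all lay above Pkm. Without Slc16a3, the overlap of both classes would rest on Slc2a4 and Phka1. The difference of the medians was 0.51, and it has no test. Against all members other than these 6, which include muscle forms that other tissues also make, it was 0.36. Summed, the muscle forms were at 203 in q1 and 332 in q2, a ratio of 1.63, and the widespread forms at 1085 and 1276, a ratio of 1.18. Another class, muscle forms that other tissues also make (Hk2, Pdk4, Gys1, Aldoa, Ldha), lay above 0 in 5 of 5, with a median of 0.74. The 8 forms of other tissues had a median of 0.40, from -0.73 to 1.32, with 5 above 0. Pygl, Hk3 and Aldoc of this class lay above each of the 6 muscle forms. A median above that of the widespread forms was therefore not particular to muscle isoforms. The 25 tested members of neither muscle class had a median of 0.15.

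**Figure D3:**
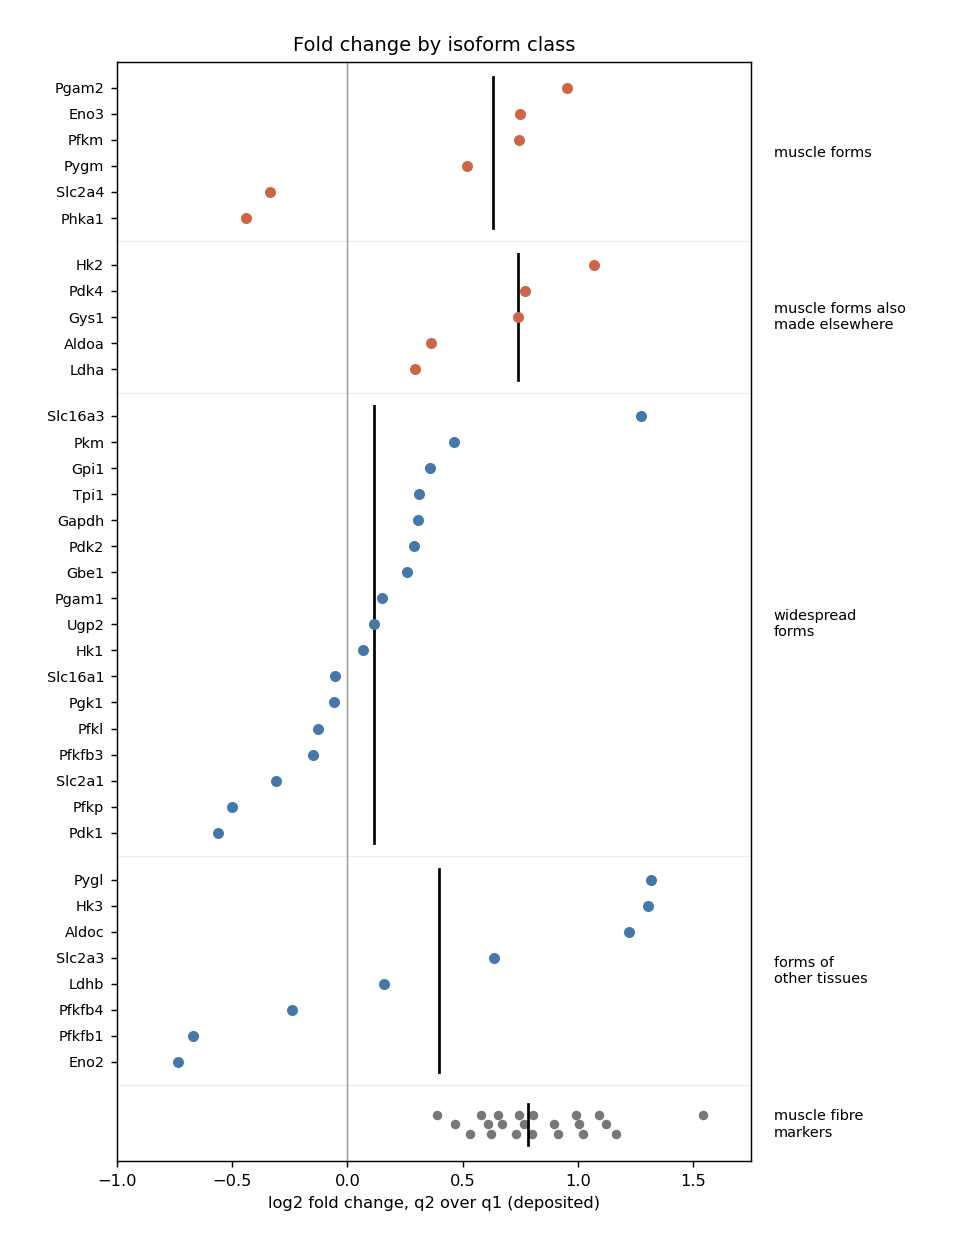
Deposited log2 fold change of q2 over q1 for each gene, by isoform class, with the median of a class as a black line and, in the bottom row, the 22 tested muscle fibre markers. The muscle forms have a median of 0.63 with Slc2a4 and Phka1 below 0. The widespread forms have a median of 0.12, the forms of other tissues 0.40 and the fibre markers 0.78.

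Muscle fibre markers lay in the same direction as most muscle isoforms. In the authors' deposited table, Acta1, skeletal actin, was at 723 and 1262, Ckm, muscle creatine kinase, at 181 and 337, and Pvalb, the calcium buffer of fast fibres, at 21.4 and 62.5. Of the 22 tested markers, 22 lay above 0, from 0.39 to 1.54, 7 had an unadjusted p below 0.05 and none was called. Their sums had a ratio of 1.91, beside 1.63 for the sums of all 6 muscle forms, of which Slc2a4 and Phka1 lay below 0. The part of fibre RNA in the difference of the muscle isoforms was not tested.

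Most leukocyte markers lay in the same direction as Pygl, Hk3, Slc16a3 and Slc2a3, which leukocytes are known to make. These 4 are not the only members that leukocytes may make. They were not a class set beforehand, and no member below 0 was placed among them. Their shared direction and range follow from that choice and are no separate result. Of the 17 forms classed as widespread, Slc16a3 among them, 10 lay above 0 and 7 below. Those below included Pfkp (log2 fold change -0.50) and Slc2a1 (-0.31). S100a8, a calcium-binding protein of neutrophils, was at 426 and 6478, and Csf3r, the receptor for the growth factor of neutrophils, at 4.76 and 11.6 per the authors' deposited table. Among macrophage genes, Ccr2, of inflammatory monocytes, was at 7.41 and 25.4, whereas Csf1r was at 83.8 and 49.7 per the authors' deposited table. The neutrophil markers had a median log2 fold change of 3.44, from 0.42 to 3.93, and the monocyte and macrophage markers 0.51, from -0.82 to 2.40. The 4 glycolysis and glycogen genes lay between 0.64 and 1.32. The part of leukocytes in these values was not tested.

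Other genes of the pathway, taken from 6 lists, gave no called gene among 78 tested. Of 12 other glycolysis genes, 7 lay above 0 and the median log2 fold change was 0.13, and Adpgk, an ADP-dependent glucokinase, at 5.49 and 12.8, was the one with an unadjusted p below 0.05 (p = 0.006) per the authors' deposited table. Of 9 other transport genes, 5 lay above 0 with a median of 0.01. Slc2a6, which codes for GLUT6, was at 2.75 and 8.2 (p = 0.0118) and Emb, embigin, a partner of lactate transporters, at 7.6 and 18.1 (p = 0.00505) per the authors' deposited table. Of 8 pentose phosphate genes, 6 lay above 0 with a median of 0.30, and Pgd, which makes NADPH in that branch, was at 22.7 and 45.5 (p = 0.0044, q = 0.301, Cuffdiff) per the authors' deposited table.

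Glycogen regulators were mixed. Of 19 tested, 10 lay above 0, and the median log2 fold change was 0.00. Ppp1r3a, which tethers a phosphatase to glycogen in muscle, was at 0.57 and 1.67 (p = 0.0083), and Phka2, the liver form of the kinase subunit, at 3.98 and 7.17 (p = 0.0392), per the authors' deposited table. Ppp1r3c, a tethering subunit found in many tissues, was at 4.33 and 2.03 (p = 0.0368) per the authors' deposited table, so the subunits did not share a direction.

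The route of pyruvate into mitochondria and the regulators of glycolytic genes had no gene with an unadjusted p below 0.05. Of 11 genes of pyruvate entry, 8 lay above 0, and the median log2 fold change was 0.12. Mpc1, of the pyruvate carrier, was at 139 and 190.05 and Pdhb, of pyruvate dehydrogenase, at 73.7 and 87.8 per the authors' deposited table. Of 19 regulators, 8 lay above 0 with a median of -0.09 and a range from -0.35 to 0.54. Txnip, which restrains glucose uptake, was at 375 and 436 and Epas1, a hypoxia-inducible factor abundant in endothelium, at 289 and 242 per the authors' deposited table. Hif1a, the factor that binds the hypoxia core, was at 27.9 and 23.2 there and was named after its values were seen.

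**Figure D4:**
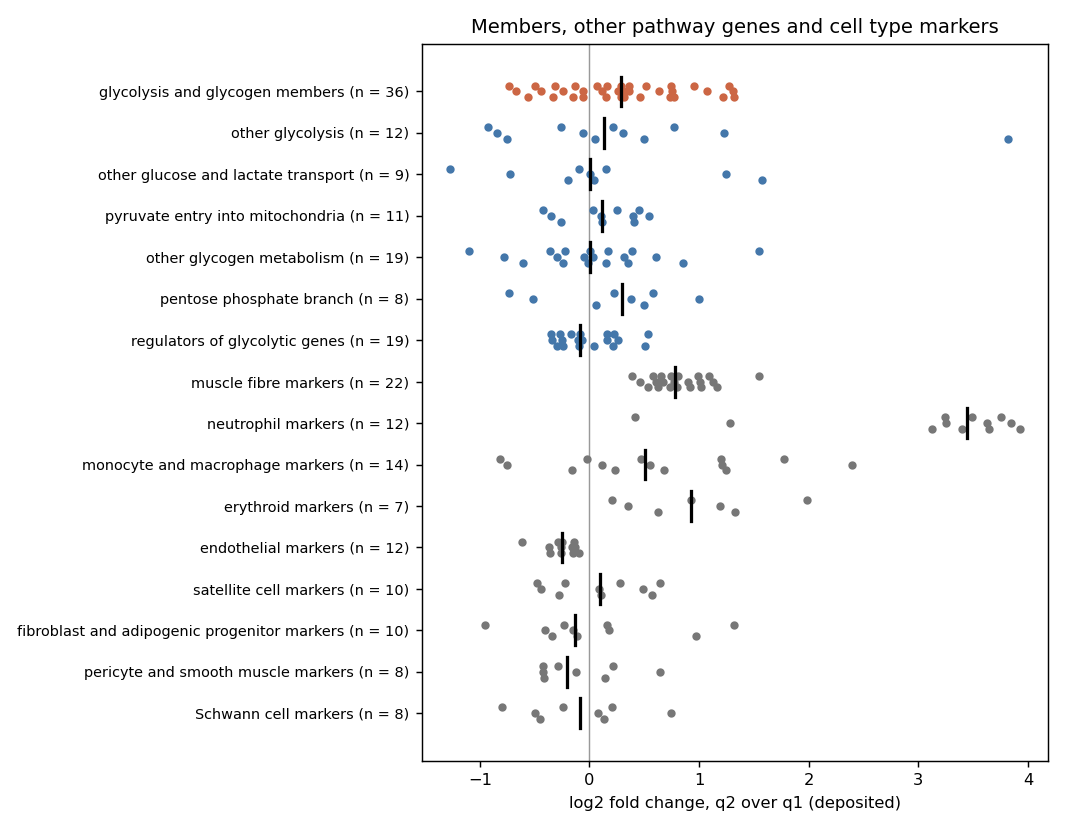
Deposited log2 fold change of q2 over q1 for each tested gene (points) and the median (black line) of the 36 members, of 6 lists of other pathway genes and of 9 lists of cell type markers. The members have a median of 0.29, the muscle fibre markers 0.78, the neutrophil markers 3.44 and the endothelial markers -0.25.

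The remaining marker lists and that of satellite cells held no called gene. Markers of erythroid cells, which depend on glycolysis, had a median log2 fold change of 0.93 over 7 tested genes, all above 0, with sums of 720.4 and 939. Satellite cell markers had a median of 0.10 over 10, fibroblast and adipogenic progenitor markers -0.13 over 10, pericyte and smooth muscle markers -0.20 over 8 and Schwann cell markers -0.08 over 8.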

How the data were processed

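Per the file headers, the authors deposited 1 table in the layout of Cuffdiff, with 1 value per gene and condition on the FPKM scale. The authors also deposited a log2 fold change, a p-value with its q-value, and a test statistic, a score that is not used here. The submitters' processing notes name TopHat2 2.0.9, Cufflinks 2.2.1 and the mm9 build, but gene positions matched GRCm38: 99.5% of 21355 genes matched by symbol and chromosome overlapped the RefSeq gene. Positions are GRCm38 and 1-based, with 1 added to the deposited start. How libraries were normalized, whether strand was used and how shared reads were handled were not stated, so levels of genes with copies are uncertain.

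The table holds 14858 tested genes (status OK). Adjusting the p-values over them by Benjamini-Hochberg returned the q-values that the authors deposited. A gene was called at q below 0.05, and no own test was run, because the table gives no values per sample. Medians, counts and family shares were computed with Python 3.11.15 and pandas 2.3.3, and the adjustment was tested on simulated data. The members and lists were chosen with earlier results of these data known. The group of Pygl, Hk3, Slc16a3 and Slc2a3 was not a planned class. The rule named members with an unadjusted p below 0.05, the 8 with the largest absolute log2 fold change at 1 FPKM or more, and all members of families with a muscle form. Of other lists it named genes with p below 0.05, or otherwise the 2 with the highest mean; marker genes given with values beside these, and Plaur, Senp1, Unc5a and Pygb, were named after their values were seen. Of 37 genes, 33 had a RefSeq start within 1000 bases of the 5′ end of the deposited gene position. Other settings tried were stricter and looser q thresholds, filters on level and fold, pseudocounts (0.1 and 1), scaling, and the make-up of classes and families.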

Additional observations from a re-analysis of the deposited data

How the results depend on the processing

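The count of 0 members called in either direction held at q below 0.1 and 0.01, after p-values were adjusted only over genes at 1 FPKM or more, with a 2-fold minimum, and for members alone on their position, which was chosen after seeing the data; with an unadjusted Cuffdiff p below 0.05 it was 4 higher and 0 lower. The members' median log2 fold change moved by at most 0.1 except when both conditions were scaled to the same sum, where it was 0.17. The difference of muscle and widespread medians was 0.62 with the muscle forms that other tissues also make, 0.36 against all other members, and 0.63 with muscle forms at 20 FPKM or more (chosen after seeing the data); fewer or more genes entered these medians. Family shares kept their direction and moved by at most 5 percentage points, except that the share of Pygm, lower by 11.5 points in q2 (-11.5), was 4.06 points higher once Pygb was counted, because Pygb was lower in q2. Among 21 named members, the log2 fold change of Hk1, 0.07, was reversed to -0.048 with both conditions scaled to the same sum, and no other changed sign under the pseudocounts or scalings. No paired analysis was possible because the deposited columns are pooled over replicates and carry no replicate number, and leaving out a replicate was not run for the same reason. The depth per gene is unknown, so the precision of the low values is unknown too.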
